A study of Homo sapiens with 12 samples.

Results

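The BCL2 family is a set of proteins that decide whether a cell opens its outer mitochondrial membrane and dies by apoptosis. The 10 genes described here were taken from the deposited count table by their symbols, as 10 of its 20289 genes, and all 10 passed the filter on low counts that left 12821 genes for testing. They were measured by RNA sequencing of poly(A) RNA in U251, an established human glioblastoma line, in 4 groups of 3 libraries. Knockdown temozolomide cells received a lentivirus with a short hairpin RNA (shCD44) that targets CD44, a membrane protein that binds hyaluronan. They were then exposed to 50 µM temozolomide for 24 h, a drug that alkylates DNA and is the standard chemotherapy of glioblastoma. Control temozolomide cells received the same drug and are marked NC in the labels, which was read as the control hairpin. Knockdown DMSO and control DMSO cells received the shCD44 or the shCtrl lentivirus and were kept in the solvent for 24 h. All groups share the same cell line, lentiviral delivery and serum-containing medium, and the labels do not state how many hairpin sequences were used or if replicate libraries came from different cultures. The p-values therefore measure the spread between these libraries, which may be technical.

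Family members fall into 3 classes. Anti-apoptotic proteins (BCL2, BCL2L1 or BCL-XL, BCL2L2 or BCL-W, and MCL1) bind and hold their pro-apoptotic relatives. The effectors BAX and BAK1 form the pores through which cytochrome c leaves the mitochondrion. The BH3-only proteins (BBC3 or PUMA, PMAIP1 or NOXA, BCL2L11 or BIM, and BID) respond to stress by occupying the anti-apoptotic proteins or by activating the effectors. In glioblastoma BCL-XL and MCL1 are well-studied survival proteins.

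The libraries held 13.5 to 24.8 times 1e6 estimated counts, so that 3 counts, taken as the floor of detection, corresponded to 0.121 to 0.222 CPM (counts per 1e6, TMM-scaled in every value below). The floor covers counting error only. CD44 averaged 326 ± 6.60 CPM in knockdown temozolomide and 821 ± 25.8 CPM in control temozolomide cells, and 419.8 ± 1.03 CPM in knockdown DMSO and 1091 ± 43.3 CPM in control DMSO cells (SD, n = 3 each), so the targeted gene fitted the labels. The glioma markers VIM (2442 to 3885 CPM) and SOX2 (262 to 409.8 CPM) were high in every library, whereas the astrocyte markers GFAP (0.242 to 1.80 CPM) and S100B (0.0605 to 0.479 CPM) were low and OLIG2 had a count in only 1 library. The summed level of the 8 glioma or astrocyte markers, CD44 among them, was 3716 to 3898 CPM in knockdown temozolomide, 3702 to 3906 CPM in control temozolomide, 4617 to 4694 CPM in knockdown DMSO and 4794 to 5053 CPM in control DMSO libraries. Its members went different ways with the knockdown under DMSO. VIM was higher (3813 to 3885 CPM in knockdown DMSO, against 3300 to 3486 CPM in control DMSO libraries), as was NES (74.5 to 79.9 against 42.0 to 43.4 CPM). SOX2 was lower (290 to 295 against 383 to 397 CPM), as was CD44, and FABP7 overlapped (14.75 to 16.3 against 14.3 to 18.6 CPM). Among 4 epithelial markers KRT5 and KRT14 were expressed, with sums of 351 to 413 CPM in knockdown temozolomide, 752 to 774 CPM in control temozolomide, 631 to 722 CPM in knockdown DMSO and 1061 to 1111 CPM in control DMSO libraries. The defining epithelial markers EPCAM and CDH1 did not exceed 0.215 CPM, and the part of these and the following marker differences in the results below was not tested. Fibroblast markers summed to 89.5 to 95.3 CPM in knockdown temozolomide, 103 to 117 CPM in control temozolomide, 171 to 190.0 CPM in knockdown DMSO and 208 to 213 CPM in control DMSO libraries. Endothelial markers summed to 14.6 to 15.4, 19.9 to 23.5, 29.7 to 30.9 and 42.0 to 47.1 CPM in that order, neuron markers to 68.4 to 73.5, 56.1 to 61.6, 74.5 to 75.8 and 54.4 to 56.3 CPM, and leukocyte markers to at most 0.922 CPM. Most of the fibroblast sum was COL1A2 (206 to 211 CPM in control DMSO) and most of the endothelial sum CDH5 (41.1 to 46.2 CPM). KDR, PECAM1 and PDGFRB went the other way with the knockdown (KDR 1.73 to 1.86 CPM in knockdown DMSO, 0.133 to 0.197 CPM in control DMSO).

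Promoter sequences are shown for a pair of members whose RNA differed between groups: BCL2L1, the anti-apoptotic gene that fell in every comparison of a pair of groups, and PMAIP1, a BH3-only gene that was higher in knockdown cells under DMSO. They come from RefSeq (GRCh38.p14), where 8 of the 10 members had a window, and MCL1 and BCL2L2 had none. Each is given 5′ to 3′ on the gene's strand and stops before the outermost transcript start in GENCODE. Capitals mark the letters TATAAA, the TATA box pattern, and the core of a cAMP response element (TGACG, or CGTCA where it lies on the other strand). In BCL2L1 the TATAAA matches lie 208 to 203 and 125 to 120 bases before the RefSeq start.
BCL2L1 (chr20:31723990-31724213, minus strand): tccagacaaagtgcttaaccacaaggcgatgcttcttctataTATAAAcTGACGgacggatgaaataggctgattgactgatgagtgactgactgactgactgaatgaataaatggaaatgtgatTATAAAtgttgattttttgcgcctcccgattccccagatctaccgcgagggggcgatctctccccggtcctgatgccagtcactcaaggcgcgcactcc
PMAIP1 (chr18:59899746-59899947, plus strand): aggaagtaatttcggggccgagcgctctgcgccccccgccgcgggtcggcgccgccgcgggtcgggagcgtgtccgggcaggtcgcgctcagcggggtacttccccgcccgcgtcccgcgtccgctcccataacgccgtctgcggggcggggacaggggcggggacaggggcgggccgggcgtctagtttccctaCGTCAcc
Both strands of the 250 bases before each start were searched for several motifs, which may overlap one another. TATAAA occurred in 1 of the 8 members (BCL2L1) and in 10.7% of 35114 promoter windows of the same length. The cAMP response element core was present in BAX, BCL2, BCL2L1 and PMAIP1, against 21.2% of windows. An AP-1 site (TGANTCA) was found in BBC3, against 6.57% of windows, and a loose NF-kB pattern in 6 members, against 54.4%. The interferon-stimulated response element core (3.02% of windows) and the STAT pattern TTCNNNGAA (6.57%) matched none of the 8. A member with several windows (BID with 5, BCL2L1 with 2) was counted once if any of them matched, so its chance of a match is higher than the share per window. These matches describe letters only and say nothing of binding.

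Levels can be compared between genes only per length, and the authors' FPKM values were used for this (fragments per kilobase of transcript and 1e6 fragments). MCL1 and BCL2L1 were the most abundant members in every group, and which of them came first differed with the hairpin. MCL1 averaged 62.9 ± 0.20 FPKM in knockdown temozolomide, 58.2 ± 2.64 FPKM in control temozolomide, 60.5 ± 0.59 FPKM in knockdown DMSO and 51.1 ± 1.41 FPKM in control DMSO cells (SD, n = 3 each). BCL2L1 averaged 49.2 ± 1.01 FPKM in knockdown temozolomide, 63.9 ± 1.60 FPKM in control temozolomide, 53.8 ± 2.29 FPKM in knockdown DMSO and 73.0 ± 1.28 FPKM in control DMSO cells. MCL1 was thus the higher of the pair in all 6 knockdown libraries and BCL2L1 in all 6 control libraries.

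The ratio of MCL1 to BCL2L1 in FPKM was 1.28 ± 0.03 in knockdown temozolomide, 0.911 ± 0.06 in control temozolomide, 1.13 ± 0.05 in knockdown DMSO and 0.701 ± 0.03 in control DMSO cells. The 4 ranges did not overlap, running from 1.26 to 1.31, 0.843 to 0.964, 1.10 to 1.18 and 0.682 to 0.738 in the same order of groups. Within the summed FPKM of the 4 anti-apoptotic genes, BCL2L1 made up 40.2% in knockdown temozolomide, 48.2% in control temozolomide, 43.5% in knockdown DMSO and 54.3% in control DMSO cells. MCL1 made up 51.5%, 43.8%, 48.9% and 38.0% in that order. The anti-apoptotic sum was 122 ± 1.60 FPKM in knockdown temozolomide and 133 ± 1.3 FPKM in control temozolomide cells, and 124 ± 2.59 FPKM in knockdown DMSO and 134 ± 0.55 FPKM in control DMSO cells. The 6 pro-apoptotic genes summed to 105 ± 2.79 FPKM in knockdown temozolomide and 99.9 ± 2.42 FPKM in control temozolomide cells, and to 110.3 ± 1.65 FPKM in knockdown DMSO and 102 ± 5.71 FPKM in control DMSO cells. No test was made of these ratios and sums, and the FPKM were taken as deposited, without the TMM scaling.

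**Figure D1:**
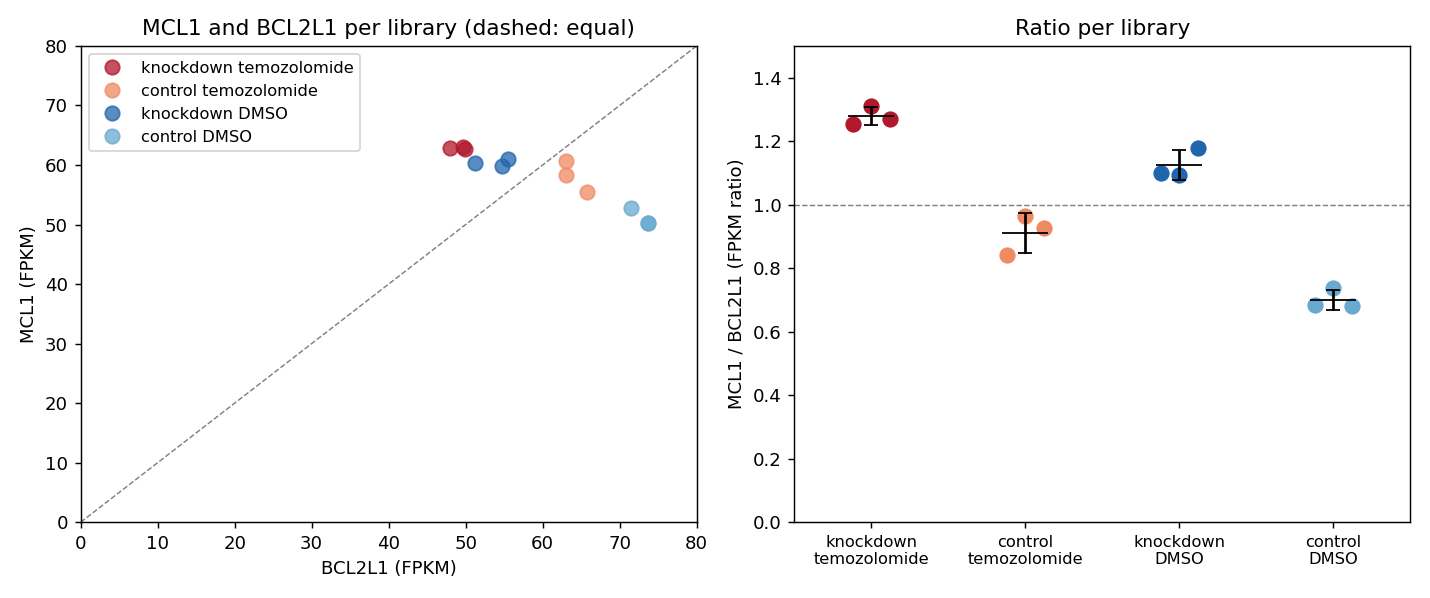
Left, MCL1 against BCL2L1 in FPKM, 1 point per library, with the dashed line marking equal levels; right, their ratio per library, with group mean and SD (n = 3). The 6 knockdown libraries lie above the line and the 6 control libraries below it, and control DMSO libraries 1 and 3 almost coincide at 73.7 FPKM of BCL2L1 and 50.3 FPKM of MCL1.

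Below this pair came PMAIP1, BAX, BID and BCL2L11, whose group means lay between 19.6 and 27.5 FPKM and whose neighbours in rank mostly overlapped. In control DMSO cells the order was BID, BAX, PMAIP1 and BCL2L11, with every adjacent pair overlapping, and in control temozolomide cells it was PMAIP1, BID, BAX and BCL2L11, again with every adjacent pair overlapping. In knockdown temozolomide cells PMAIP1 (25.03 to 25.94 FPKM) stood clear of BAX but not of BID, which reached 26.95 FPKM in library 1. There BAX, BID and BCL2L11 overlapped in turn. In knockdown DMSO cells PMAIP1 overlapped with BID and BAX with BCL2L11, but BID and BAX did not overlap. BAK1 (10.5 to 13.1 FPKM), BCL2L2 (7.93 to 9.14 FPKM), BCL2 (1.18 to 1.82 FPKM) and BBC3 (0.497 to 0.643 FPKM) followed in that order in all 4 groups without overlap between neighbours.

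**Figure D2:**
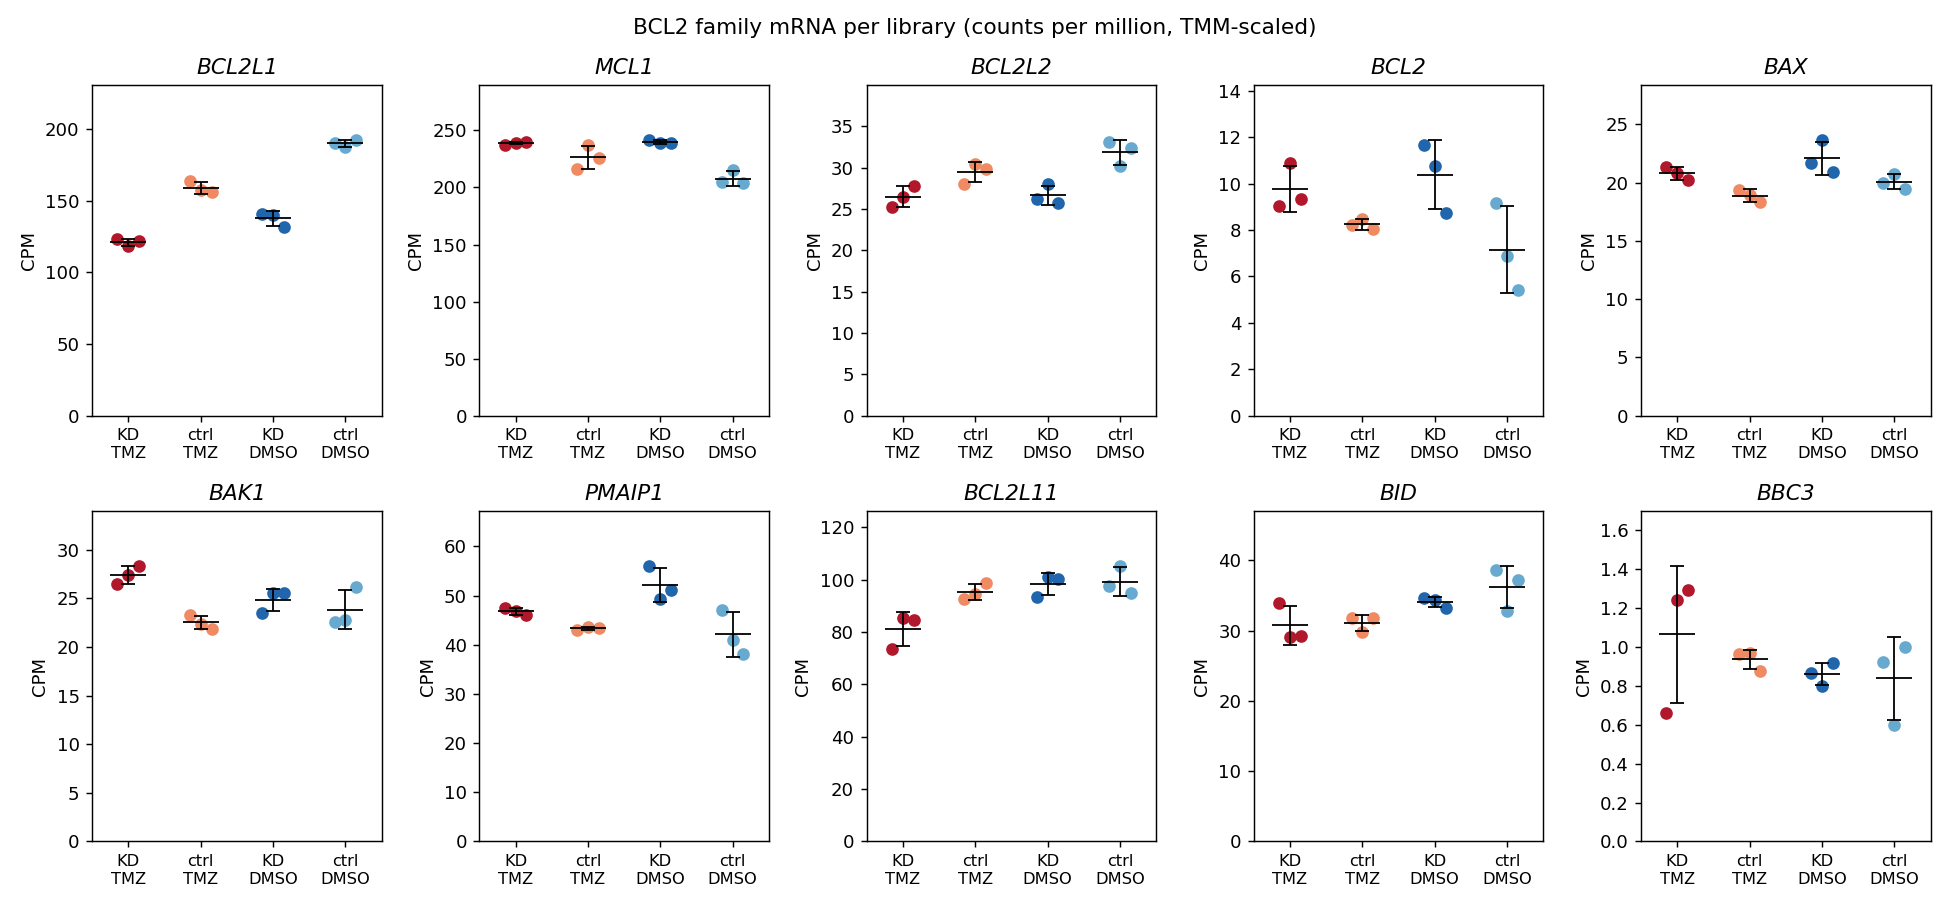
Level of each member in CPM (counts per 1e6, TMM-scaled) in every library, with group mean and SD (n = 3). KD is the CD44 hairpin, ctrl the control hairpin and TMZ temozolomide. BCL2L1 is lowest in knockdown temozolomide libraries (118 to 123 CPM) and highest in control DMSO libraries (187 to 192 CPM), and BBC3 stays near 1 CPM.

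The comparison of knockdown with control cells under DMSO asks how the family differs when less CD44 RNA is present and no drug is given. In this comparison 3 members rose (MCL1, BCL2 and PMAIP1) and 2 fell (BCL2L1 and BCL2L2) at a Benjamini-Hochberg adjusted p below 0.05 in edgeR's quasi-likelihood test. Of all genes tested, 21.1% rose and 21.4% fell. The members' median log2 fold change was 0.04, against -0.00 over all genes. When only library totals set the scale, 3387 of all genes rose and 2167 fell, in place of 2710 and 2748. In bulk RNA, fewer cells of a kind and less RNA per cell cannot be told apart.

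BCL2L1 (chromosome 20, 31664452 to 31723989, minus strand, GRCh38 in GENCODE), the gene of BCL-XL, had 140.6, 140.2 and 132 CPM in knockdown DMSO libraries, against 190.2, 187 and 192 CPM in control DMSO libraries. All 3 knockdown libraries were lower, with a log2 fold change of -0.47 (SE 0.04, adjusted p = 1.70e-09). MCL1 (chromosome 1, 150574551 to 150579738, minus strand), whose short-lived protein holds BAK1 and BCL2L11 in check, had 242, 239 and 239 CPM in knockdown DMSO, against 204, 215 and 204 CPM in control DMSO libraries. It rose by 0.21 on the log2 scale (SE 0.04, adjusted p = 9.48e-05), and the groups did not overlap.

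BCL2L2 (chromosome 14, 23298790 to 23311759, plus strand), a close relative of BCL2L1, had 26.2, 28.0 and 25.7 CPM in knockdown DMSO, against 33.0, 30.2 and 32.3 CPM in control DMSO libraries, a log2 fold change of -0.26 (SE 0.06, adjusted p = 0.00236) without overlap. Its locus overlaps the readthrough gene BCL2L2-PABPN1 on the same strand and HOMEZ and PPP1R3E on the other, its counts are fractional, and the fits to FPKM gave no call (-0.18, adjusted p = 0.0851 with a pseudocount of 1), so its value is uncertain. BCL2 (chromosome 18, 63123346 to 63320128, minus strand), the founding member, had 11.7, 10.8 and 8.74 CPM in knockdown DMSO, against 9.15, 6.90 and 5.40 CPM in control DMSO libraries. These ranges overlapped. The log2 fold change of BCL2 was 0.54 (SE 0.15, adjusted p = 0.00655), and the call was lost without control DMSO library 3 (0.36, adjusted p = 0.0579) and in FPKM (0.21, adjusted p = 0.254 with a pseudocount of 1).

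PMAIP1 (chromosome 18, 59899948 to 59904306, plus strand), the gene of NOXA, which binds MCL1, had 56.1, 49.3 and 51.1 CPM in knockdown DMSO, against 47.1, 41.1 and 38.1 CPM in control DMSO libraries. It rose by 0.31 (SE 0.06, adjusted p = 0.000495), and by 0.20 after a correction for GC content (adjusted p = 0.0131). Its longest transcript has a GC content of 37.2%, the lowest of the 10. BAX (chromosome 19, 48954815 to 48961798, plus strand) had 21.7, 23.7 and 20.9 CPM in knockdown DMSO, against 19.9, 20.8 and 19.5 CPM in control DMSO libraries, a log2 fold change of 0.14 (95% interval -0.01 to 0.29, adjusted p = 0.132). That value passed the threshold with library totals alone (0.18, adjusted p = 0.0485) and with the correction for GC content (0.20, adjusted p = 0.0236).

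The other effector, BAK1, and the BH3-only genes BCL2L11, BID and BBC3 did not pass the test under DMSO. BAK1 (chromosome 6, 33572547 to 33580293, minus strand) changed by 0.06 (95% interval -0.09 to 0.21) and BCL2L11 (chromosome 2, 111119378 to 111168447, plus strand), which can engage every anti-apoptotic protein of the family, by -0.01 (-0.12 to 0.10). BID (chromosome 22, 17734138 to 17774770, minus strand), which links death receptors to mitochondria once caspase 8 cuts it, changed by -0.09 (-0.23 to 0.05). BBC3 (chromosome 19, 47220822 to 47232766, minus strand) had 13, 13 and 18 counts in knockdown DMSO, against 14, 9 and 17 counts in control DMSO libraries. At that depth its interval of -0.69 to 0.75 on the log2 scale leaves a change of either sign undetected.

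Under temozolomide the same comparison of knockdown with control cells gave 1 rise (BAK1) and 2 falls (BCL2L1 and BCL2L11), where 22.0% of all genes rose and 20.3% fell. The members' median log2 fold change was 0.09, against 0.01 over all genes. With library totals alone the split over all genes was 3457 rises and 2126 falls in place of 2823 and 2603.

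BCL2L1 had 123, 118 and 122 CPM in knockdown temozolomide, against 164, 158 and 156 CPM in control temozolomide libraries, a log2 fold change of -0.40 (SE 0.04, adjusted p = 2.20e-08) with no overlap. BAK1 had 26.5, 27.4 and 28.4 CPM in knockdown temozolomide, against 23.3, 22.4 and 21.9 CPM in control temozolomide libraries. Every knockdown library was higher, by 0.28 on the log2 scale (SE 0.07, adjusted p = 0.00262). BCL2L11 had 73.7, 85.4 and 84.5 CPM in knockdown temozolomide, against 92.8, 94.7 and 98.6 CPM in control temozolomide libraries. The log2 fold change of BCL2L11 was -0.23 (SE 0.05, adjusted p = 0.00148), with no overlap, but in FPKM it was -0.11 and not called (adjusted p = 0.239 with a pseudocount of 1).

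MCL1 had 238, 239 and 240.1 CPM in knockdown temozolomide, against 216, 237 and 226 CPM in control temozolomide libraries, a difference of 0.08 (95% interval 0.00 to 0.15, adjusted p = 0.0820). This missed the threshold, and passed it without control temozolomide library 2 (0.11, adjusted p = 0.0273) and with library totals alone (0.12, adjusted p = 0.0114). BCL2L2 had 25.3, 26.4 and 27.8 CPM in knockdown temozolomide, against 28.1, 30.4 and 29.9 CPM in control temozolomide libraries. Its change of -0.15 (adjusted p = 0.0597) lay just outside the threshold and was called with relative log expression factors (-0.16, adjusted p = 0.0457), with the GC correction (-0.20, adjusted p = 0.0128) and without control DMSO library 2, control temozolomide library 1 or knockdown temozolomide library 3 (-0.16, -0.19 and -0.18). BCL2 (0.25, -0.05 to 0.55), BAX (0.14, -0.01 to 0.29), PMAIP1 (0.11, -0.02 to 0.24), BBC3 (0.18, -0.48 to 0.84) and BID (-0.02, -0.16 to 0.12) did not pass the test, each given as log2 fold change and 95% interval.

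**Figure D3:**
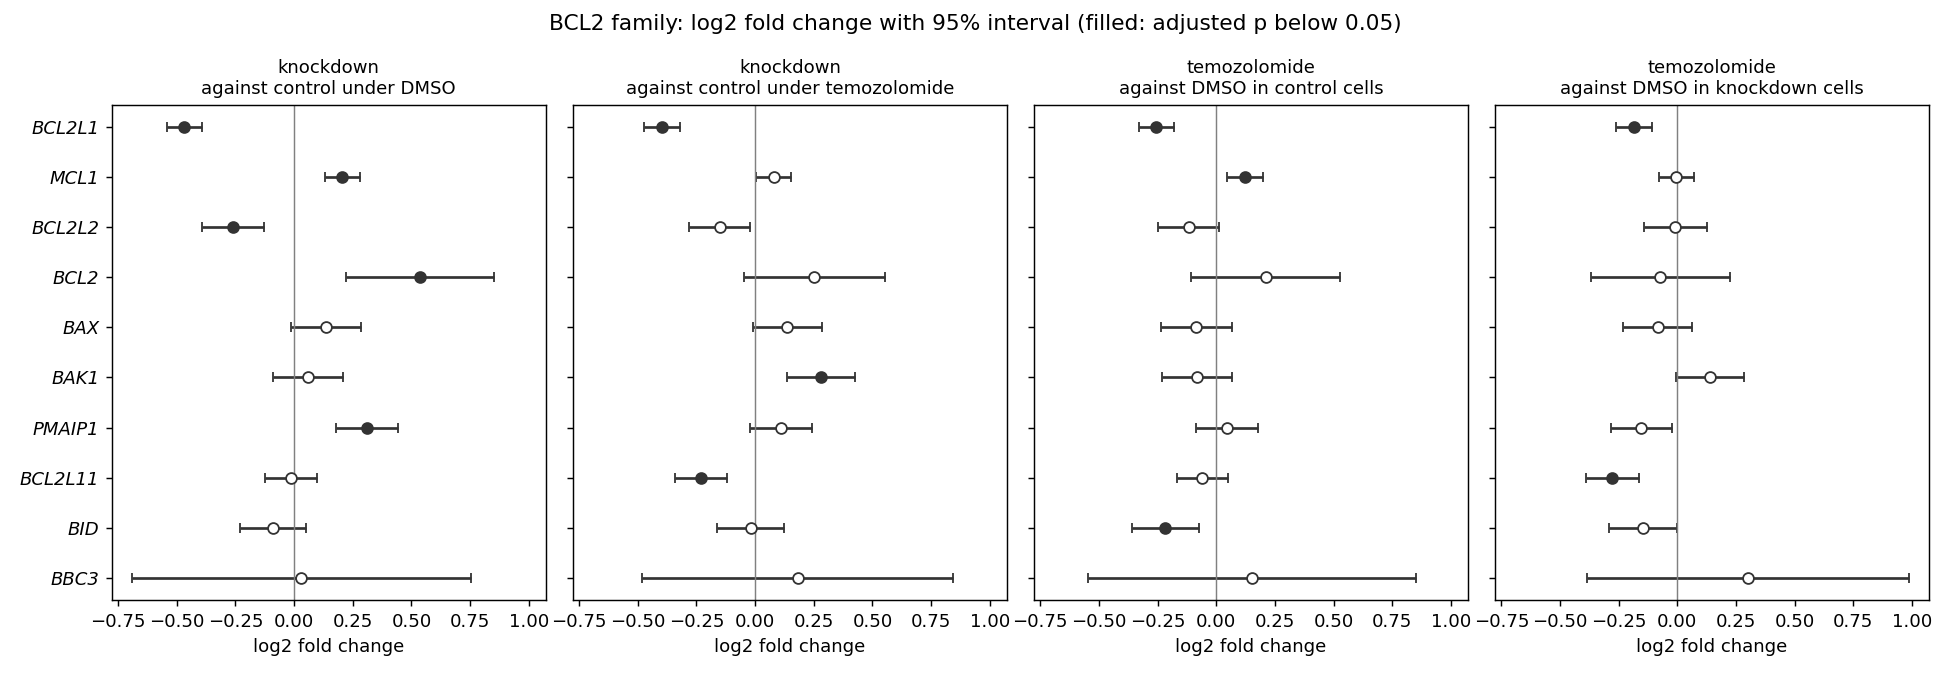
Log2 fold change of each member with its 95% interval in 4 comparisons of pairs of groups (edgeR), filled where the adjusted p is below 0.05. BCL2L1 lies left of 0 in all 4 panels, at -0.47, -0.40, -0.25 and -0.18, and BBC3 has the widest intervals.

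Temozolomide against DMSO in control cells asks how the family responds to the drug in cells with the control hairpin, in which CD44 itself fell by 0.41 on the log2 scale (adjusted p = 1.27e-08). MCL1 rose, BCL2L1 and BID fell, and the other 7 members did not pass the test, where 11.7% of all genes rose and 15.8% fell. The members' median was -0.07, against -0.00 over all genes. With library totals alone the split over all genes was 2870 rises and 1295 falls in place of 1505 and 2024. These comparisons share groups with those of the knockdown, so their values are not independent of each other.

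BCL2L1 had 164, 158 and 156 CPM in control temozolomide, against 190.2, 187 and 192 CPM in control DMSO libraries. It fell by 0.25 on the log2 scale (SE 0.04, adjusted p = 2.08e-05), and by 0.17 after the GC correction (adjusted p = 0.000530). MCL1 had 216, 237 and 226 CPM in control temozolomide, against 204, 215 and 204 CPM in control DMSO libraries, a log2 fold change of 0.12 (SE 0.04, adjusted p = 0.0144). The groups did not overlap, though the call was lost without control DMSO library 1 (0.12, adjusted p = 0.0587) or control temozolomide library 2 (0.09, adjusted p = 0.101), and library totals alone gave 0.19.

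BID had 31.8, 29.8 and 31.8 CPM in control temozolomide, against 38.6, 32.8 and 37.2 CPM in control DMSO libraries, a log2 fold change of -0.22 (SE 0.07, adjusted p = 0.0213) without overlap. Its call was lost with library totals alone (-0.15, adjusted p = 0.103), in FPKM (-0.16, adjusted p = 0.279 with a pseudocount of 1), and without control DMSO library 1 (-0.17), control DMSO library 3 (-0.19) or control temozolomide library 2 (-0.19). The pro-apoptotic genes BBC3, PMAIP1 and BAX changed by 0.15 (95% interval -0.55 to 0.85), 0.05 (-0.09 to 0.18) and -0.08 (-0.23 to 0.07). BCL2 changed by 0.21 (-0.11 to 0.53), and was called without control DMSO library 1 (0.43, adjusted p = 0.0487). BCL2L2 (-0.12, -0.25 to 0.01), BAK1 (-0.08, -0.23 to 0.07) and BCL2L11 (-0.06, -0.17 to 0.05) did not pass the test.

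In knockdown cells BCL2L1 and BCL2L11 fell with temozolomide and no member rose, where 9.05% of all genes rose and 13.2% fell. The members' median was -0.08, against 0.00 over all genes, and library totals alone split all genes into 2533 rises and 1078 falls in place of 1160 and 1694. BCL2L1 had 123, 118 and 122 CPM in knockdown temozolomide, against 140.6, 140.2 and 132 CPM in knockdown DMSO libraries, a log2 fold change of -0.18 (SE 0.04, adjusted p = 0.00122). It was -0.12 with library totals alone (adjusted p = 0.0186), and missed the threshold in the filtered fit to FPKM (-0.13, adjusted p = 0.0672). BCL2L11 had 73.7, 85.4 and 84.5 CPM in knockdown temozolomide, against 93.5, 101 and 100.3 CPM in knockdown DMSO libraries. All 3 treated libraries were lower, by -0.28 (SE 0.05, adjusted p = 0.000791), a value of -0.14 in FPKM that was not called (adjusted p = 0.176 with a pseudocount of 1).

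BAK1 had 26.5, 27.4 and 28.4 CPM in knockdown temozolomide, against 23.5, 25.5 and 25.5 CPM in knockdown DMSO libraries. The groups did not overlap, and its change of 0.14 (95% interval -0.01 to 0.28, adjusted p = 0.165) was called only with library totals alone (0.20, adjusted p = 0.0351) and in the filtered fits to FPKM (0.19, adjusted p = 0.0462 with a pseudocount of 1). In that FPKM fit 1380 of all genes rose and 652 fell. PMAIP1 had 47.4, 46.9 and 46.1 CPM in knockdown temozolomide, against 56.1, 49.3 and 51.1 CPM in knockdown DMSO libraries, a change of -0.15 (-0.28 to -0.02, adjusted p = 0.0831) that was called without a low-count filter (-0.16, adjusted p = 0.0450) and without control DMSO library 1 or 3 (-0.16 each). BID changed by -0.15 (-0.29 to -0.00, adjusted p = 0.139), and was called without knockdown temozolomide library 1 (-0.22, adjusted p = 0.0330). MCL1 stood at 238, 239 and 240.1 CPM in knockdown temozolomide and 242, 239 and 239 CPM in knockdown DMSO libraries, a change of -0.00 (-0.08 to 0.07). BCL2 (-0.07), BCL2L2 (-0.01), BAX (-0.08) and BBC3 (0.30) did not pass the test.

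Knockdown cells with temozolomide were also set against control cells with DMSO, the 2 groups that differ in both respects. Here 4 members rose (MCL1, BCL2, BAK1 and PMAIP1) and 4 fell (BCL2L1, BCL2L2, BCL2L11 and BID), where 25.4% of all genes rose and 24.5% fell. The members' median was 0.10, against 0.01 over all genes. Library totals alone split all genes into 5053 rises and 2039 falls in place of 3255 and 3143 and moved their median to 0.12, a shift shared by MCL1 (0.31) and BAK1 (0.30).

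BCL2L1 was 63.7% of its control DMSO level in knockdown temozolomide cells, a log2 fold change of -0.65 (SE 0.04, adjusted p = 5.72e-12) that ranged from -0.66 to -0.64 as each library was left out. MCL1 was at 115% (0.20, SE 0.04, adjusted p = 8.84e-05), BCL2L11 at 81.8% (-0.29, SE 0.05, adjusted p = 0.000141) and BCL2L2 at 83.2% (-0.27, SE 0.06, adjusted p = 0.00145, -0.17 with library totals alone). BID stood at 85.0% (-0.24, SE 0.07, adjusted p = 0.00725), and this was not called with library totals alone (-0.13, adjusted p = 0.116).

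The calls of BCL2, BAK1 and PMAIP1 were less steady. BCL2 was at 136% of its control DMSO level (0.46, SE 0.15, adjusted p = 0.0146), lost without control DMSO library 3 (0.28, adjusted p = 0.123) or knockdown temozolomide library 2 (0.37, adjusted p = 0.0901). BAK1 was at 115% (0.20, SE 0.07, adjusted p = 0.0244), and was not called by DESeq2 (0.19, adjusted p = 0.0936), in a fit to only the groups compared (0.19, adjusted p = 0.0559) or without control DMSO libraries 1 or 2 or knockdown temozolomide libraries 2 or 3 (0.16, 0.16, 0.20 and 0.17). PMAIP1 was at 111% (0.16, SE 0.06, adjusted p = 0.0497), and the call was lost in 10 of the 12 fits that left out a library, by DESeq2 (0.14, adjusted p = 0.128), with relative log expression factors (0.15, adjusted p = 0.0657), in a fit to only the groups compared (0.15, adjusted p = 0.0864) and after the GC correction (0.07, adjusted p = 0.370). BCL2L2, BCL2L11, BID and BCL2 were not called in FPKM (-0.07, -0.11, -0.15 and 0.19 with a pseudocount of 1), where 3956 of all genes rose and 1675 fell.

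Whether temozolomide acted differently in knockdown and control cells was tested as the difference between both responses. No member passed in edgeR or in DESeq2, where 0.437% of all genes rose and 0.616% fell in edgeR. In edgeR 4 members (MCL1, BAK1, PMAIP1 and BCL2L11) had an unadjusted p below 0.05, as did 2279 of the 12821 genes tested. The members' median difference was 0.04, against 0.01 over all genes. BCL2L11 had the smallest p, with a log2 difference of -0.22 (95% interval -0.37 to -0.06, adjusted p = 0.132), and was called when no low-count filter was used (-0.23, adjusted p = 0.0361). BAK1 differed by 0.22 (0.01 to 0.43, adjusted p = 0.249), PMAIP1 by -0.20 (-0.39 to -0.01, adjusted p = 0.248) and MCL1 by -0.13 (-0.23 to -0.02, adjusted p = 0.195). For BCL2L1 the difference was 0.07 (-0.04 to 0.18), so a drug response differing by more than these bounds between the 2 kinds of cell lay outside its interval. BCL2 (-0.28, -0.72 to 0.15), BCL2L2 (0.11, -0.08 to 0.30), BID (0.07, -0.13 to 0.27), BBC3 (0.15, -0.83 to 1.13) and BAX (0.00, -0.21 to 0.21) completed the set.

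Other genes of the apoptotic machinery were followed in 7 lists of 72 symbols, of which 60 were tested. Of 7 tested relatives of the BCL2 family, 2 rose and 4 fell in knockdown cells under DMSO (median -0.19), and 2 rose and 4 fell under temozolomide (median -0.37), against all-gene medians of -0.00 and 0.01. Over all genes 21.1% rose and 21.4% fell under DMSO, and 22.0% rose and 20.3% fell under temozolomide, the background for all the knockdown counts of these lists. BMF, a BH3-only protein that senses loss of attachment, fell by 1.45 on the log2 scale under DMSO (SE 0.21, adjusted p = 9.20e-06), and BAD, a BH3-only protein controlled by growth factor signals, by 0.42 (SE 0.09, adjusted p = 0.000535). BIK, a BH3-only protein of the endoplasmic reticulum, rose by 0.69 (SE 0.13, adjusted p = 0.000200). The mitophagy receptors BNIP3 and BNIP3L fell by 0.41 and 0.42 in knockdown cells under temozolomide. Temozolomide moved none of these relatives past the threshold in control cells, and BNIP3 and BNIP3L fell with it in knockdown cells (-0.21 and -0.17), calls that were lost with library totals alone.

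The 6 tested caspases gave 2 rises and 1 fall with the knockdown under DMSO and 1 rise and 2 falls under temozolomide. Of all genes, 21.1% rose and 21.4% fell under DMSO, and 22.0% rose and 20.3% fell under temozolomide. CASP2 fell by 0.38 under DMSO (adjusted p = 3.48e-06) and by 0.29 under temozolomide. Among 6 inhibitors of apoptosis, 3 rose with the knockdown under DMSO, including the ubiquitin ligase BIRC2 by 0.62 (SE 0.04, adjusted p = 6.99e-11, list median 0.23). Under temozolomide 3 rose and 1 (XIAP, which binds caspases) fell, with a list median of 0.21. Of 9 genes of the apoptosome and of mitochondrial release, 0 rose and 3 fell under DMSO, among them the nuclease ENDOG (-0.71) and AIFM1 (-0.21), and 1 rose and 2 fell under temozolomide.

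Of 8 tested death receptor pathway genes, 3 rose and 0 fell with the knockdown under DMSO, and 4 rose and 0 fell under temozolomide, where 22.0% of all genes rose and 20.3% fell (21.1% and 21.4% under DMSO). The receptor FAS rose by 0.59 under DMSO (SE 0.06, adjusted p = 4.56e-08) and by 0.36 under temozolomide. Of 16 transcription factors and regulators known to act on BCL2 family genes, 6 rose and 2 fell under DMSO and 5 rose and 3 fell under temozolomide. ATF3, a stress-induced factor, rose by 0.88 under DMSO (adjusted p = 4.22e-06) and by 0.70 under temozolomide. Among 8 genes of BCL2 family protein turnover, 2 rose and 0 fell in each, led by the ISG15-conjugating enzyme UBE2L6 at 1.40 and 1.06, while USP9X, which removes ubiquitin from MCL1, changed by 0.18 and 0.10.

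Temozolomide in control cells was set against DMSO for the same lists. As background, 11.7% of all genes rose and 15.8% fell in control cells, and 9.05% rose and 13.2% fell in knockdown cells. Of 6 tested caspases 2 rose, among them CASP6 (0.28), and of 6 inhibitors of apoptosis 3 rose, led by BIRC2 (0.26). From the apoptosome list APAF1, its scaffold, rose by 0.20. The outer membrane channels VDAC1 and VDAC2 fell (-0.22 and -0.21), as did the death ligand TNFSF10 or TRAIL (-0.42, adjusted p = 0.00164). In knockdown cells TNFSF10 fell by 0.67 (adjusted p = 2.33e-05) and VDAC1 by 0.22. Among the 16 regulators tested, 2 rose and 5 fell in control cells, and 2 rose and 5 fell in knockdown cells. HIF1A fell by 0.31 and 0.35, STAT3, an inducer of MCL1 and BCL2L1, by 0.24 and 0.30, and MDM2, a ubiquitin ligase, rose by 0.21 in control cells. The calls of APAF1 and CASP6 were each lost without at least 1 library, and those of MDM2 and VDAC2 in control cells in the fits to FPKM.

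Across both changes, knockdown with temozolomide against control with DMSO, 2 of the 7 relatives rose and 4 fell (median -0.37), where 25.4% of all genes rose and 24.5% fell, with BMF at -1.78 (SE 0.22, adjusted p = 7.02e-07). Of the inhibitors of apoptosis 3 rose and 0 fell (median 0.35), and of the death receptor pathway 3 rose and 1 fell (median 0.08). The regulators gave 2 rises and 6 falls (median -0.07), with ATF3 at 1.21 (adjusted p = 2.22e-08). The response to temozolomide differed between knockdown and control cells for 1 listed gene, XIAP, and for 0 genes of the other 6 lists.

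**Figure D4:**
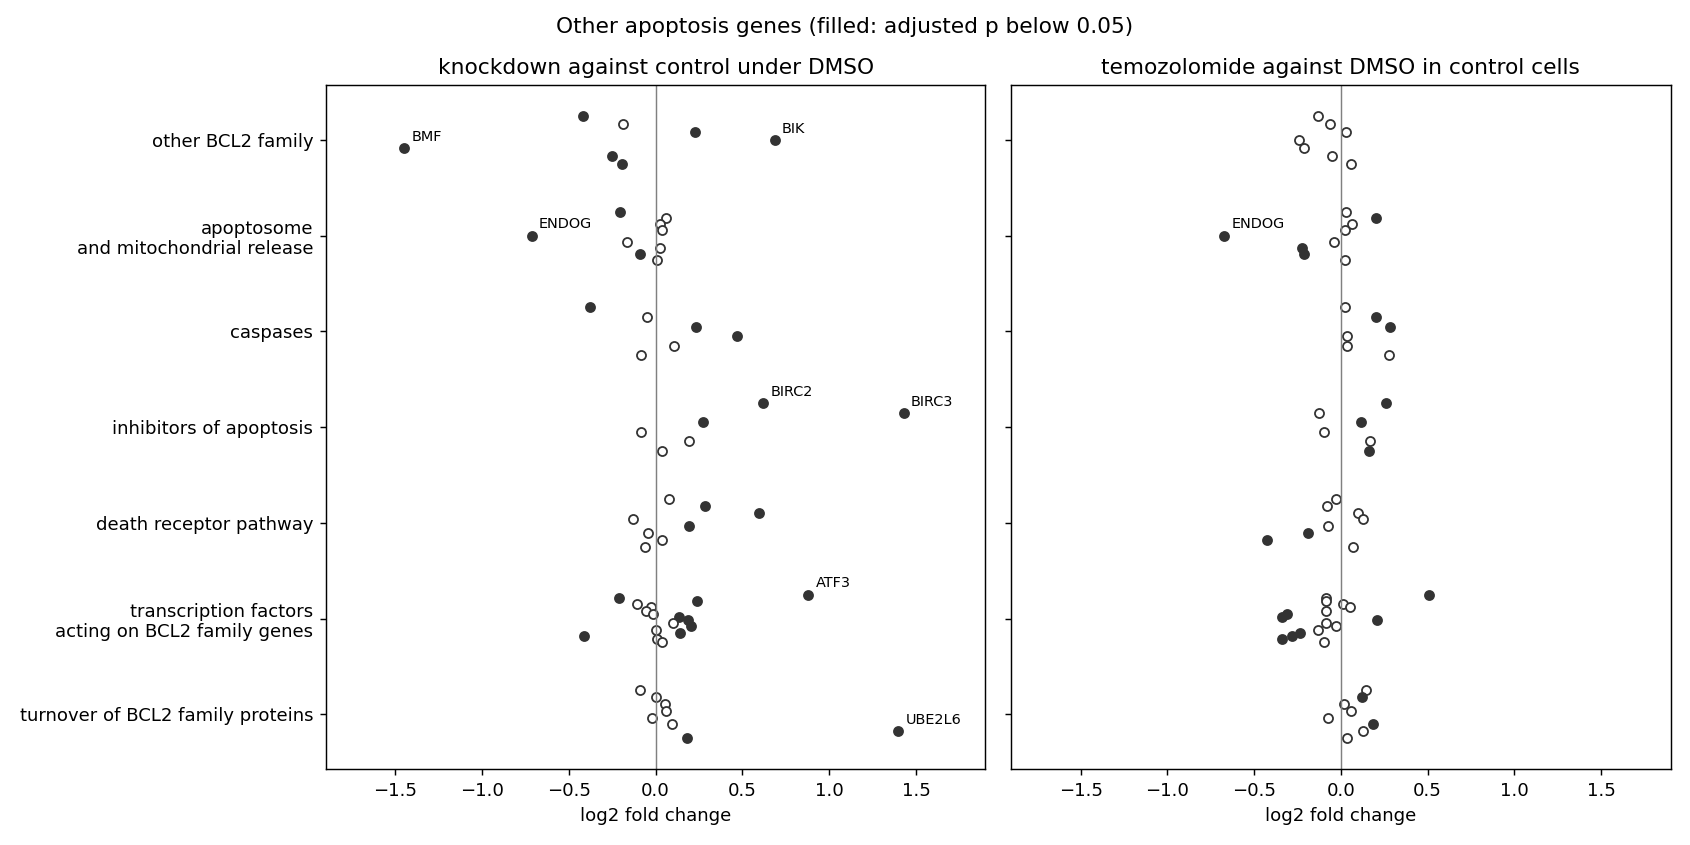
Log2 fold change of each tested gene of the 7 lists for knockdown against control under DMSO (left) and temozolomide against DMSO in control cells (right), filled where the adjusted p is below 0.05, with names on the called genes that moved most. On the left the points reach from -1.45 (BMF) to 1.43 (BIRC3), and on the right most lie close to 0.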

How the data were processed

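Poly(A) RNA of 12 U251 libraries was sequenced, and groups were taken from the labels. The authors deposited estimated counts per gene (10.7% to 12.0% of the values per library are not whole) and FPKM. The tools named per the submitters' processing notes are RSEM, HISAT2, StringTie 1.3.1, Bowtie2 2.2.8 and fastp 0.18.0, with no role stated. Neither build nor annotation is given in the sources used here. Gene coordinates, transcript lengths and GC content come from GENCODE release 29 (GRCh38), joined by gene ID.

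The expected counts were rounded and fitted in R 4.3.3 with edgeR 4.0.16 (filterByExpr defaults, TMM, 4 group means over 12 libraries, glmQLFTest), and p-values were adjusted by Benjamini-Hochberg over 12821 genes. SE values were derived from the fold change and its F statistic. Alternatives were a block for replicate number, leaving out 1 library at a time, DESeq2 1.42.0, fits to only the groups compared, a filter of 1 CPM in 3 libraries or none, scaling by library totals or by relative log expression, limma 3.58.1 on log2(FPKM + 1) and log2(FPKM + 0.1), other thresholds, and a GC correction (spline with 5 degrees of freedom per library). Fold changes in FPKM include the pseudocount and understate changes of low genes. They carry no TMM scaling, and their median over all genes lay above that of the main fit in every comparison of a pair of groups. The procedure was tested on simulated data. The members and lists were chosen with earlier results of these data known. Text names follow a rule: all 10 members, CD44, up to 2 called genes per direction with the smallest p in each list and comparison, and the 3 genes of at least 5 CPM closest in profile to the member with the widest range of group means. Named outside the rule are the cell type markers, genes overlapping BCL2L2, and MGMT. Some listed genes are not reported here.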

Additional observations from a re-analysis of the deposited data

Results flagged for a closer look

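XIAP, which binds and blocks caspases, was the only gene of the 7 lists whose temozolomide response was called different between knockdown and control cells, with a log2 difference of -0.25 (SE 0.06, adjusted p = 0.0489, edgeR quasi-likelihood test). In the same test BIRC2 (-0.22, adjusted p = 0.0529) and ENDOG (1.02, adjusted p = 0.0690) missed the threshold by little, so the call does not set XIAP apart from them. Temozolomide raised XIAP by 0.16 in control cells. In knockdown cells its response was not called. The difference lost its call in 9 of the 12 fits that left out a library (adjusted p up to 0.125), in FPKM (-0.38, adjusted p = 0.527 with a pseudocount of 1) and after the correction for GC content (-0.15, adjusted p = 0.275).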

How the results depend on the processing

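Of the 10 members, 5 were called for the knockdown under DMSO, 3 under temozolomide, 3 for temozolomide in control and 2 in knockdown cells, 8 for both changes against neither and 0 for the difference. Leaving out each library in turn gave 4 to 5, 3 to 4, 1 to 3, 2 to 3, 5 to 8 and 0 to 0 members in that order. The lowest counts of 1 and 5 came without control temozolomide library 2 and without knockdown temozolomide library 2. Over all genes these fits called 1082 rises with 1624 falls and 2872 with 2831, in place of 1505 with 2024 and 3255 with 3143. Fits to log2(FPKM + 1), log2(FPKM + 0.1) and unfiltered FPKM called 3 members each for the knockdown under DMSO, 1 each for temozolomide in knockdown cells and 4 each for both changes. Of 11541 genes tested, the filtered fit to log2(FPKM + 1) called 2339 rises and 1673 falls for the knockdown under DMSO. It called 1380 and 652 for temozolomide in knockdown cells, and 3956 and 1675 for both changes. In knockdown cells the 1 member called was BAK1, which rose, in the filtered fits and BCL2L1, which fell, in the unfiltered fit. An adjusted p below 0.01 left 1 member for temozolomide in control cells and 5 for both changes. Asking also for a 1.5-fold change left 0, 0, 0, 0 and 1 (BCL2L1) in the 5 comparisons of pairs of groups. The share of all genes passing these stricter rules is not given here, so the counts are not particular to the family. Without a low-count filter 1 member (BCL2L11) was called for the difference. With the replicate number as a block the counts of members were 5, 3, 3, 2, 8 and 0, and no member's call changed. The numbers did not clearly pair libraries: over 18 same-number pairs deviations correlated at -0.077 to 0.136, 1 pair exceeded 0.1, and for 6 of 12 libraries the highest correlation was with the same number. Of the members' single results, 1365 kept their direction and their side of the threshold, 84 lost and 19 gained a call, 66 changed sign with neither value called, and none reversed with a call. Over all genes, called differences between the responses numbered 135 in edgeR, and 110 rises with 195 falls in DESeq2, 187 with 359 without a filter, 103 with 119 under the block and 10 with 23 after the GC correction. They ran from 6 with 13 without control temozolomide library 2 to 210 with 185 without control temozolomide library 1. The GC correction split the knockdown under DMSO into 2296 rises and 3321 falls. Depth limits BBC3 most, at 9 to 26 counts per library. Where a call changed, the cause was not tested.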

Other observations

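The 3 genes closest in profile to BCL2L1, the member with the widest range of group means (0.65 on the log2 CPM scale), were IMPDH2, TIMP2 and AIF1L among 10572 candidates of at least 5 CPM. Their root mean square differences from the centred log2 CPM of BCL2L1 over 12 libraries were 0.041, 0.041 and 0.046. IMPDH2 makes guanine nucleotides and TIMP2 inhibits matrix metalloproteinases. IMPDH2 averaged 7.97 log2 CPM in knockdown temozolomide and 8.36 in control temozolomide cells, and 8.12 in knockdown DMSO and 8.57 in control DMSO cells. The likeness rests on the same 12 libraries and their scaling, and is a description.

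The authors' counts and FPKM differ for some members in a way that a single gene length does not give. Counts per FPKM, scaled to the library total, correspond to a length of 3283 to 7065 bases for BCL2, lowest in control temozolomide library 3. BCL2 stood at 1.79, 1.21 and 2.47 FPKM in control temozolomide libraries but at 8.22, 8.47 and 8.02 CPM in the same libraries. BAX ranged from 719 to 971 bases and BID from 1206 to 1496 bases, whereas MCL1 (3913 to 3940 bases) and BAK1 (2169 to 2173 bases) hardly varied. GENCODE lists 4 transcripts of BCL2, from 572 to 7461 bases, and 3 of BAK1, from 2132 to 2212 bases.

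MGMT, which removes the alkyl group that temozolomide adds to guanine, had 0 counts in 11 of the 12 libraries and 1 count in knockdown temozolomide library 2, below the floor of 3 counts in every library.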
